A study of Rattus norvegicus with 54 samples.

Results

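The nuclear-encoded subunits of respiratory complexes II to V were followed in the left ventricle of athymic rats 1 week after surgery. The members were all symbols of the count tables that begin with Uqcr, with Cox and a digit from 4 to 8, or with Atp5, together with Sdha, Sdhb, Sdhc, Sdhd, Cyc1 and Cycs. This rule found 54 of the 40319 genes listed: 4 of complex II, 11 of complex III with cytochrome c, 20 of complex IV and 19 of complex V. Pseudogenes and copies whose symbols match (Uqcrb-ps1, Cox6b1-ps1, Cox6c-ps1, Atp5h-ps1, Cox7a2l2 and Atp5hl1) are included, and their counts are uncertain because their reads can be shared with the parent genes. Cox7a1 and the mitochondrially encoded subunits are not listed under the symbols searched and were not analysed here.

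The rats were female F344/NJcl-rnu/rnu animals, 8 weeks old, and the nude mutation is shared by all groups. Sham animals had the operation without ligation, MI animals had a permanent proximal ligation of the left anterior descending artery, and cell sheet animals had the same ligation followed by a bi-level sheet of human smooth muscle cells and endothelial progenitor cells laid on the epicardium over the ischemic area. Infarct tissue came from the anterior wall, border tissue from the lateral wall and remote tissue from the septum, each from 6 animals per treatment, which gives 9 groups and 54 libraries. The labels number the libraries as technical replicates while the methods describe separate hearts, so the p-values measure the spread between these libraries.

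In the mitochondrial inner membrane, complex II passes electrons from succinate to ubiquinone, complex III passes them from ubiquinol to cytochrome c, and complex IV passes them from cytochrome c to oxygen. Complexes III and IV pump protons, and complex V, the ATP synthase, makes ATP from the proton gradient through a catalytic F1 head that is driven by a rotating ring of c subunits. Heart muscle is among the tissues richest in these complexes, and it carries muscle forms of some complex IV subunits beside the forms that most cells use.

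Promoters were looked up because groups of members moved together in parts of the data. Of the 54 members, 42 had a promoter in the RefSeq table for assembly GRCr8, covering 250 bases before to 50 after the gene's start; the counts were made on another assembly, mRatBN7.2. The letters of 5 motifs were searched on both strands. GCGCA and GCGC with 1 free base between them, the binding motif of NRF1, an activator of respiratory genes, was found in 7 of the 42 members (16.7%) and in 4.25% of all 33469 promoters. The members were Sdha, Uqcrc1, Atp5f1c, Atp5mc2, Atp5mc3, Atp5po and Atp5me. CCGGAAG, the core of ETS factors, was found in 14 members (33.3%) against 8.75% of all promoters, and AANATGGCG, a YY1 motif, in 7 (16.7%) against 3.01%. CAAGGTCA, bound by estrogen-related receptors, was in Cox8a, Atp5mc3 and Sdhd (7.14% against 1.52%), and CTA and TAG with 4 free bases between them, the outline of a MEF2 site, in Cox6a2 and Cox5b (4.76% against 3.84%). No motif overlaps another in the promoters printed. A match is a description of letters and no evidence of binding.

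The promoters of 5 genes are shown, up to 30 bases after the start and with motif matches in capitals, because their RNA levels differ in pattern: Sdha, the catalytic subunit of complex II; Cox7a2, a small general subunit of complex IV; Cox6a2 and Cox8b, the muscle forms; and Cox7a2l, a factor that joins complexes III and IV. Sdha holds 3 NRF1 matches, Cox7a2 an ETS match and Cox6a2 a MEF2 match, and the letters searched are not in the windows of Cox8b and Cox7a2l.
Sdha (chr1:30764303-30764582, plus strand): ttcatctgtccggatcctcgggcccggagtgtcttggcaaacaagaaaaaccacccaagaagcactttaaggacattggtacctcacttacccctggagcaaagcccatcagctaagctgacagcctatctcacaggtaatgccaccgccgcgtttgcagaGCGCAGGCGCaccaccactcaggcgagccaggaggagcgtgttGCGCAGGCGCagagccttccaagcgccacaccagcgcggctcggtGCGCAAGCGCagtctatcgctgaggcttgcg
Cox7a2 (chr8:89601120-89601399, minus strand): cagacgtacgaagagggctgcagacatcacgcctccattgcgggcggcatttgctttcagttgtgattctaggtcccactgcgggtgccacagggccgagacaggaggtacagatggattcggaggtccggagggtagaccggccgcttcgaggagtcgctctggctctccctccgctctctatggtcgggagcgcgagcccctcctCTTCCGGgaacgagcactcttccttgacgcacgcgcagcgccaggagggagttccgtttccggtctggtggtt
Cox6a2 (chr1:192219687-192219966, minus strand): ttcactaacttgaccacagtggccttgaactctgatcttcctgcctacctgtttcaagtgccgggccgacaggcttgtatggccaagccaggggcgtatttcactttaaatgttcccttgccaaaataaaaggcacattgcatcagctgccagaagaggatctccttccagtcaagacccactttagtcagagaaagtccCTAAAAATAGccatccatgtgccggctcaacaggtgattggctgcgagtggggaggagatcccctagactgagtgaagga
Cox8b (chr1:205408244-205408523, minus strand): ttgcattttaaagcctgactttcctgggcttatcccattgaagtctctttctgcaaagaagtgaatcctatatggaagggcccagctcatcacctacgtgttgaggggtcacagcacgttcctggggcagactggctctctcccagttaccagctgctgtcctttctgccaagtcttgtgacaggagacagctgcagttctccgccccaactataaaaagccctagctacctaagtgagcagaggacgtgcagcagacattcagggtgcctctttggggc
Cox7a2l (chr6:16936324-16936603, plus strand): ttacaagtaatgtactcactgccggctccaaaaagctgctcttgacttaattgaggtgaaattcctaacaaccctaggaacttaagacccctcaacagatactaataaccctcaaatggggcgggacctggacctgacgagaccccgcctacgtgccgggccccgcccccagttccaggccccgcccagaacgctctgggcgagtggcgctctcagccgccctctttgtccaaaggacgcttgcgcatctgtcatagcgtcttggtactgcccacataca

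Levels are CPM, counts scaled to library size with TMM factors over the 54 libraries, and fold changes come from edgeR's quasi-likelihood test on the counts with Benjamini-Hochberg adjustment over all genes tested. A gene was called at an adjusted p under 0.05. The libraries held 12699204 to 23397754 counts on genes. In each comparison 50 members passed the filter on low counts, and Atp5hl1, Cox6c-ps1, Cox7b2 and Cox8c did not. No transcript lengths were used, so CPM levels are compared between groups and not between genes.

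Libraries of 2 animals stood apart in macrophage or cardiomyocyte markers. In sham replicate 5, the 10 macrophage markers summed to 7541 to 13053 CPM in its 3 zones, and in all other sham libraries to 379 to 914 CPM. Among the 45 members with a mean level of at least 10 CPM, this animal gave the lowest of the 6 sham values for 45 (infarct), 43 (border) and 45 (remote). In cell sheet replicate 1, the remote library held 3342 CPM of macrophage markers against 476 to 875 in the other cell sheet remote libraries, and the border library held 607 CPM of the 16 cardiomyocyte markers against 12962 to 44427. Its border and remote libraries were each the lowest of their group for 43 of the 45 members. Results that rest on these animals are given with and without them. Single libraries of other animals held markers of lung epithelium. The 5 markers summed to 200 CPM in MI border replicate 3 and 10.1 CPM in MI border replicate 2 (group median 0.413). They summed to 194 CPM in cell sheet border replicate 4 (group median 0.610) and 64.7 CPM in cell sheet infarct replicate 6 (group median 0.809). Their part in the results was not tested.

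In the infarct zone, RNA of nearly every subunit of complexes II to V was lower in MI than in sham. Of the 50 members tested, 47 were lower and 1 was higher in MI than in sham, where 27.2% of the 15758 genes tested were called lower and 22.7% higher. All 4 members of complex II, all 11 of complex III with cytochrome c and all 18 tested of complex V were lower, as were 14 of 17 tested of complex IV. The median log2 fold change was -1.67 over the members and -0.02 over all genes. All members together made up a median of 5.17% of the counts in sham infarct libraries and 1.49% in MI infarct libraries.

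The largest falls differed among complexes. Sdhb, the iron-sulfur subunit of complex II, had 398 CPM in the lowest, 1004 in the median and 1161 in the highest sham library, and 122, 214 and 544 CPM in MI. The MI libraries overlapped the sham range only beside sham replicate 5. Its log2 fold change was -1.80 ± 0.38 (SE, adjusted p = 0.00319, edgeR), and the smallest fall in complex II was that of the membrane anchor Sdhc, -1.42 ± 0.37 (adjusted p = 0.00847). Sdha and the other anchor Sdhd fell by 1.71 and 1.58 on the log2 scale.

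Cycs, cytochrome c, the mobile carrier between complexes III and IV, lay at 1019, 1832 and 2036 CPM in sham (lowest, median, highest) and at 106, 238 and 1008 CPM in MI. The groups did not overlap, although the highest MI library reached close to sham replicate 5. Its log2 fold change of -2.19 ± 0.49 (adjusted p = 0.00416) was the largest fall in complex III with cytochrome c, and the small subunit Uqcr11 had the smallest, -1.38 ± 0.38 (adjusted p = 0.0108). Cyc1 (cytochrome c1), Uqcrc1 (a core protein) and Uqcrfs1 (the Rieske iron-sulfur protein) lay between them, at -1.73, -1.73 and -1.80.

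The widest spread was in complex IV. Cox8b, the muscle form of subunit 8, fell from 727, 2008 and 2495 CPM in sham (lowest, median, highest) to 16.7, 215 and 940 CPM in MI, a log2 fold change of -2.64 ± 0.76 (adjusted p = 0.0132). Cox8a, the form most cells use, fell by 0.54 on the log2 scale (adjusted p = 0.00551), from a median of 267 to 184 CPM. The same order held in the pair of subunit 6A, with -1.58 for the muscle form Cox6a2 and -0.61 for Cox6a1. Cox4i1 and Cox5a, which belong to the early assembled part of the complex, fell by 1.38 and 1.66, and Cox7a2 by 1.83.

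Cox7a2l and Cox4i2 did not pass the test in the infarct zone. Cox7a2l had 260, 288 and 302 CPM in sham and 222, 253 and 291 CPM in MI (lowest, median, highest), so that the groups overlapped (log2 fold change -0.18 ± 0.09, adjusted p = 0.0982). Cox4i2, the form of subunit 4 known from lung and smooth muscle, lay at a median of 12.4 CPM in sham and 7.18 CPM in MI (-0.61 ± 0.28, adjusted p = 0.0911).

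Cox6b2, known as the testis form of subunit 6B, was the only member called higher, and it was singled out after its values were seen. It had 0.377, 0.710 and 1.22 CPM in sham infarct libraries and 2.01, 4.77 and 5.90 CPM in MI (lowest, median, highest), with no overlap, where 8.74% of all genes did not overlap with MI above sham. Cycs was the only member without overlap below sham there, against 5.39% of all genes. The log2 fold change was 2.52 ± 0.34 (adjusted p = 0.000255) in the infarct zone and 2.72 ± 0.39 (adjusted p = 0.000625) in the border zone.

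In complex V, Atp5f1b, the catalytic beta subunit, fell from a median of 9631 to 2251 CPM (log2 fold change -1.68 ± 0.47, adjusted p = 0.0110) and Atp5f1a, the alpha subunit, from 4330 to 888 CPM (-1.80 ± 0.43, adjusted p = 0.00564). Atp5pf, coupling factor 6 of the peripheral stalk, had the largest fall of the complex, -1.92 ± 0.41 (adjusted p = 0.00319). Atp5if1, the inhibitor that blocks ATP hydrolysis by the complex, had the smallest, -0.70 ± 0.17 (adjusted p = 0.00557), with 195, 217 and 259 CPM in sham and 104, 128 and 214 CPM in MI.

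**Figure D1:**
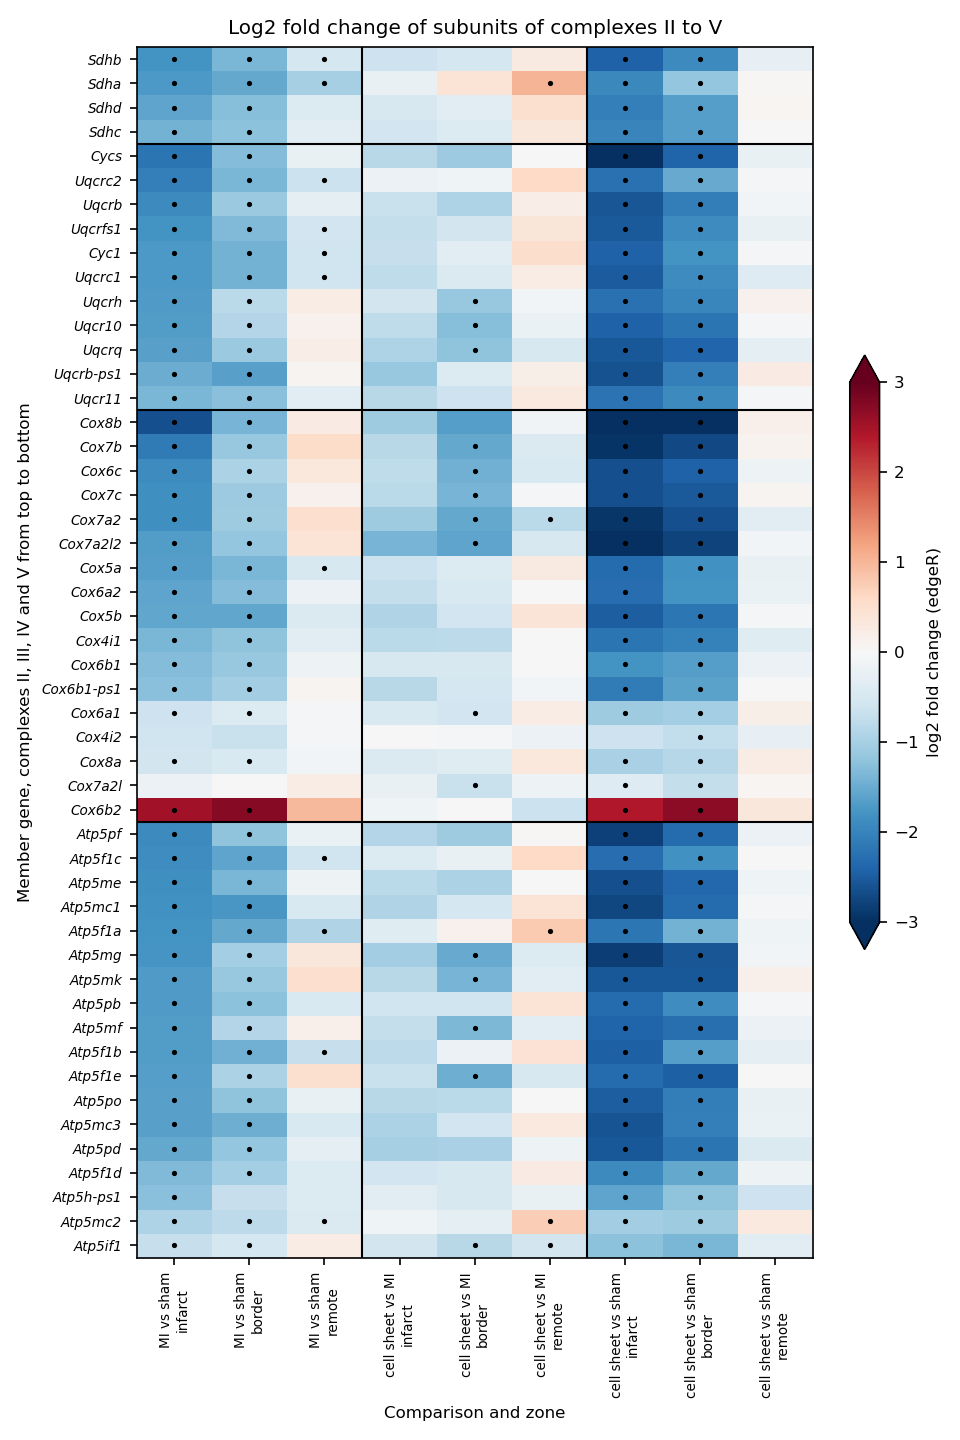
Log2 fold change of the 50 members tested (rows, with complexes II, III, IV and V from top to bottom, each sorted by MI against sham in the infarct zone) in 9 comparisons (columns); colour is the edgeR log2 fold change, limited to -3 and 3, and a dot marks an adjusted p under 0.05. Nearly all rows are blue in the infarct and border zones against sham, Cox6b2 is red there, and in the remote zone MI against sham holds 11 dots and cell sheet against sham none.

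The cardiomyocyte markers moved with these falls. All 16 were lower in the MI than in the sham infarct zone, with a median log2 fold change of -1.76, and their summed level was 31374 to 100725 CPM in sham and 4788 to 50137 CPM in MI. Of the 10 fibroblast markers 8 were higher and of the 10 macrophage markers 5. In bulk tissue, fewer cells of a type and less RNA per cell cannot be told apart. With the cardiomyocyte marker score of each library as a covariate, 1 of the 50 members was called in the infarct zone, higher, and the median log2 fold change was -0.26. Calls over all 15758 genes under this covariate were 614 higher and 163 lower.

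In the border zone most members were again lower in MI; the infarct and border effects were not tested against each other. MI was lower than sham for 46 members and higher for 1, Cox6b2, where 23.2% of the 15641 genes tested were called lower and 18.4% higher, and the median log2 fold change of the members was -1.19. The catalytic Sdha of complex II fell by 1.54 on the log2 scale (adjusted p = 0.00662), Cycs by 1.30 (adjusted p = 0.0120), Cox8b by 1.40 (adjusted p = 0.0274) and Atp5f1b by 1.44 (adjusted p = 0.0148). Cox7a2l had 244, 256 and 326 CPM in sham and 248, 273 and 294 CPM in MI, and its log2 fold change was -0.01 ± 0.10 (adjusted p = 0.967). All 16 cardiomyocyte markers were below 0 and 14 of them were called lower. With the cardiomyocyte score as a covariate 1 member was called, higher, where 839 of the 15641 genes were called higher and 339 lower.

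In the remote zone fewer members moved. Of the 50 members, 11 were lower and 0 higher in MI than in sham, where 14.2% of the 15294 genes tested were called lower and 11.7% higher, and the members' median log2 fold change was -0.21. The 11 were Sdha and Sdhb of complex II, Cyc1, Uqcrc1, Uqcrc2 and Uqcrfs1 of complex III, Cox5a of complex IV, and Atp5f1a, Atp5f1b, Atp5f1c and Atp5mc2 of complex V, which are, apart from Cox5a and the c subunit Atp5mc2, catalytic or core subunits. Sdha had 632, 1259 and 1328 CPM in sham and 443, 600 and 681 CPM in MI (lowest, median, highest). The groups overlapped only through sham replicate 5. Its log2 fold change was -0.99 ± 0.17 (adjusted p = 0.00227), and that of Atp5f1a was -0.91 ± 0.19 (adjusted p = 0.00502), from a median of 4740 to 2296 CPM.

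Other members had log2 fold changes above 0 in the remote zone and were not called. Cox7a2 had 113, 176 and 296 CPM in sham and 223, 281 and 352 CPM in MI, which gave 0.50 ± 0.22 on the log2 scale (adjusted p = 0.104). Cox7b, another small subunit of complex IV, stood at 0.54 ± 0.20 (adjusted p = 0.0667), Atp5f1e, the epsilon subunit of the F1 part, 0.48 ± 0.19 (adjusted p = 0.0829), and Atp5mk, a small membrane subunit of complex V, 0.49 ± 0.20 (adjusted p = 0.0800). By class of subunit, 4 of 4 catalytic and core subunits of complex III were lower, with a median of -0.60, whereas 0 of its 5 small subunits was called and their median was 0.13. For complex V, 3 of 5 members of the F1 head and central stalk were lower (median -0.61) and 0 of 4 small membrane subunits (median 0.24). The classes were compared after the values were seen and the difference between them was not tested.

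The remote count depended on single libraries and on scaling. Without sham replicate 5, 25 members were lower and 2 higher, where 3521 of the 15444 genes tested were called lower and 3656 higher. Leaving out any of sham replicates 1, 2, 3, 4 and 6 or MI replicates 3, 4, 5 and 6 left 3 to 7 calls. Without sham replicate 6, 3 were higher and 4 lower, and without sham replicate 1 or MI replicate 4, 1 was higher and 4 lower. In the other fits named all calls were lower. With library size in place of TMM factors the split was 9 higher and 4 lower, and the median of all genes moved from -0.04 to 0.09. Sdha, Uqcrc2, Atp5f1a and Atp5f1b remained lower under that scaling, and Cox7a2, Cox7b, Atp5f1e and Atp5mk were called higher with log2 fold changes of 0.64, 0.68, 0.62 and 0.64. Of the 16 cardiomyocyte markers 7 were lower in the MI remote zone (summed level 39684 to 64797 CPM, against 48309 to 96272 CPM in sham), and 9 of the 10 fibroblast markers were higher. With the cardiomyocyte score as a covariate, 12 members were higher and 0 lower, among them Cox7a2 (1.06), Cox7b (1.04), Atp5mk (1.13) and Atp5mg (0.97). Among all 15294 genes, 780 were then called higher and 1700 lower.

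The effect of MI differed between the infarct and remote zones for most members. In a test of the zone difference with the animal as a block, 44 of the 50 members were called (43 lower and 1 higher), against 28.9% of the 16445 genes tested (15.3% lower and 13.6% higher), and the median difference in log2 fold change was -1.48. Cox8b differed by -3.60 ± 0.75 (adjusted p = 0.00428), Cox7b by -3.12 ± 0.43 (adjusted p = 0.000700) and Cox7a2 by -2.72 ± 0.40 (adjusted p = 0.000852). The difference did not pass the threshold for Sdha (-0.88 ± 0.35, adjusted p = 0.0718), Atp5f1a (-1.05 ± 0.41, adjusted p = 0.0683) and Atp5f1b (-1.21 ± 0.46, adjusted p = 0.0601). Without the block 19 members were called.

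**Figure D2:**
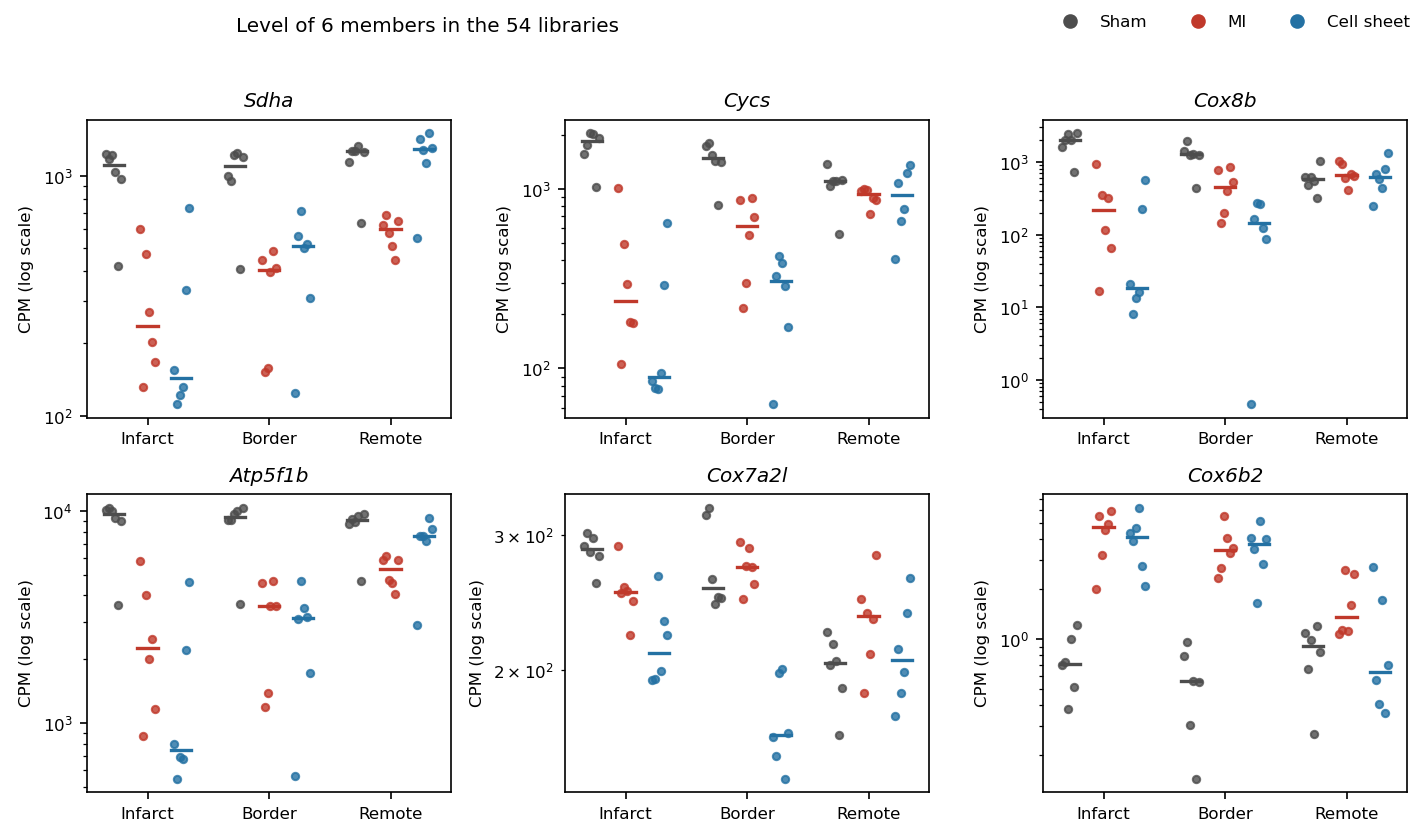
CPM on a log scale (vertical) of 6 members in each of the 54 libraries, by zone (horizontal) and treatment (colour); points are libraries and bars are group medians of 6. Sdha and Atp5f1b lie lower in MI than in sham in all zones, Cox8b and Cycs mainly in the infarct and border zones, Cox7a2l is low in the cell sheet border zone, and Cox6b2 is high in MI and cell sheet infarct and border zones.

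The cell sheet was compared with untreated MI to ask how the treatment altered the infarcted heart. In the infarct zone no member was called, and neither was any of the 16196 genes tested (0%). All 50 members had a log2 fold change below 0, with a median of -0.71, and 7 had an unadjusted p under 0.05. DESeq2 called 0 members, and over all genes 41 higher and 14 lower. The lowest adjusted p among the members was 0.499. The cell sheet infarct libraries spread widely: the members summed to 4869, 5796 and 26613 CPM (lowest, median, highest), against 6517, 13419 and 37429 CPM in MI. Cox8b ranged from 8.04 to 574 CPM within the cell sheet group, and the cardiomyocyte markers from 1491 to 46715 CPM.

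In the border zone the cell sheet group was lower than MI for 15 members and higher for 0, where 9.48% of the 16272 genes tested were called lower and 8.47% higher. Of these, 3 belonged to complex III, 7 to complex IV and 5 to complex V, and 0 to complex II. They were Uqcrh, Uqcr10 and Uqcrq; Cox6c, Cox7a2, Cox7b, Cox7c, Cox6a1, the copy Cox7a2l2 and Cox7a2l; and Atp5f1e, Atp5mf, Atp5mg, Atp5mk and Atp5if1. Cox7a2 had 70.2, 164 and 258 CPM in MI and 17.7, 50.6 and 98.4 CPM in the cell sheet group (lowest, median, highest), with a log2 fold change of -1.54 ± 0.42 (adjusted p = 0.0250). Atp5mg, subunit g of the membrane part of complex V, had 303, 727 and 1161 CPM in MI and 98.2, 252 and 391 CPM in the cell sheet group (-1.51 ± 0.39, adjusted p = 0.0188). Both pairs of groups overlapped.

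Cox7a2l was the only member whose cell sheet and MI border libraries did not overlap. Its 6 cell sheet libraries lay at 144 to 200 CPM (median 165) and its 6 MI libraries at 248 to 294 CPM (median 273), with no overlap, where 5.38% of all genes did not overlap with the cell sheet group below MI. The log2 fold change was -0.67 ± 0.10 (adjusted p = 0.00133). It was also below sham in that zone (-0.70 ± 0.12, adjusted p = 0.000786), whereas MI alone had given -0.01.

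Most catalytic and core subunits were not called in the cell sheet border zone. Sdha had 152, 404 and 485 CPM in MI and 125, 510 and 713 CPM in the cell sheet group, a log2 fold change of 0.41 ± 0.41 (adjusted p = 0.524). Values for Atp5f1a, Atp5f1b and Uqcrc2 were 0.14 ± 0.43, -0.19 ± 0.48 and -0.12 ± 0.43, and none of the 3 was called. Cyc1, Uqcrc1 and Uqcrfs1 lay at -0.34, -0.42 and -0.55, and were not called either. The 4 small membrane subunits of complex V had a median log2 fold change of -1.36, the F1 head and central stalk -0.22, the 5 small subunits of complex III -1.13 and its catalytic and core subunits -0.38. Medians of the classes of complexes II and IV, of the c ring and of the peripheral stalk are not given here. The called members of complex IV reached -1.58 (Cox7a2l2). This grouping was again made after the values were seen, and the difference between the classes was not tested.

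The cardiomyocyte markers did not differ in the same way there. None of the 16 was called between the cell sheet and MI border zones, with 0 at an unadjusted p under 0.05 and a median log2 fold change of 0.13, and the summed level was 607, 31585 and 44427 CPM in the cell sheet group and 6511, 30339 and 38479 CPM in MI. The members summed to 0.516 times the cardiomyocyte markers in the median cell sheet border library and to 0.785 times in the median MI border library, and the groups overlapped. With the cardiomyocyte score as a covariate 24 members were lower and 1, Sdha, was higher (log2 fold change 0.59). That fit called 2594 of all 16272 genes lower and 2282 higher. Of the 10 adipocyte markers 8 could be tested and 3 were higher. Their summed level was 452 to 2410 CPM in the cell sheet and 449 to 1298 CPM in the MI border zone. The sum hides single markers. Medians with the cell sheet and in MI were 84.0 and 0.108 CPM for Adipoq, 85.3 and 0.262 for Plin1, and 38.3 and 0.0557 for Retn. Fabp4, a large part of the sum, went the other way (357 and 503 CPM). The macrophage markers summed to a median of 6646 CPM in MI and 3124 CPM with the cell sheet (1 of 10 called, lower), the neutrophil markers to 81.3 and 22.1 CPM (0 of 5 tested called) and the fibroblast markers to 28893 and 44260 CPM (0 of 10 called). Of the 8 mural markers 3 were higher and of the 8 endothelial markers 1. The part of these cell types in the result was not tested. Without cell sheet replicate 1, 13 members were lower, where 1628 of the 16423 genes tested were called lower. Without MI replicate 1 there were 8 calls, without MI replicate 6 there were 9, and without MI replicate 5 or cell sheet replicates 2, 5 or 6 there were 7, in each case lower.

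In the remote zone 3 of the 50 members were higher and 2 lower with the cell sheet than in MI, and the members' median log2 fold change was 0.01. Both are smaller shares than those of all genes given below, so the members were not called more often than genes at large. The higher ones were Sdha (log2 fold change 1.03 ± 0.21, adjusted p = 0.0113), Atp5f1a (0.78 ± 0.25, adjusted p = 0.0490) and Atp5mc2 (0.73 ± 0.19, adjusted p = 0.0219), where 10.3% of the 15374 genes tested were called higher. Sdha had 551, 1289 and 1501 CPM in the cell sheet group against 443, 600 and 681 CPM in MI, and cell sheet replicate 1 was the single library inside the MI range. Against the direction of its complex, Atp5if1 was lower (-0.54 ± 0.15, adjusted p = 0.0289), with 89.2, 122 and 165 CPM against 152, 173 and 212 CPM. Cox7a2 was lower too (-0.80 ± 0.26, adjusted p = 0.0479), and 6.79% of all genes were called lower.

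Without cell sheet replicate 1, 17 members were higher and 3 lower in that comparison, and Sdha rose by 1.17, Atp5f1a by 0.94 and Uqcrc2 by 0.75 on the log2 scale. Calls over all genes rose too, to 3222 higher and 3228 lower of 15502. Leaving out MI replicates 1, 3, 4 or 5 or cell sheet replicates 2, 3, 4 or 5 left 1 to 3 calls, and without cell sheet replicate 6 there were 2 higher and 5 lower. With library size in place of TMM factors 2 were higher and 2 lower. Of the 16 cardiomyocyte markers 3 were higher and 0 lower, of the 10 macrophage markers 2 were lower, of the 10 fibroblast markers 1 was lower, of the 8 mural markers 3 were higher, and of the 4 neutrophil markers tested 2 were lower. The fibroblast markers summed to a median of 16689 CPM in MI and 5466 CPM with the cell sheet, where 5 libraries lay at 3769 to 12080 CPM and cell sheet replicate 1 at 43268 CPM. The medians in MI and with the cell sheet were 2168 and 584 CPM for macrophage, 27.9 and 5.48 CPM for neutrophil and 1590 and 2455 CPM for mural markers, and the part of these cell types in the result was not tested. With the cardiomyocyte score as a covariate 1 member was higher and 12 were lower, where 744 of the 15374 genes were called higher and 714 lower. Reads assigned to no gene made up 23.1% ± 2.84 (SD, n = 6) of the counts in cell sheet remote libraries and 31.2% ± 4.11 (SD, n = 6) in MI remote libraries. This share differed in the other zones too. Its mean was 28.2% in sham, 17.8% in MI and 13.0% in cell sheet infarct libraries. In the border zone it was 28.2%, 18.6% and 16.7%. The part of these reads in the results was not tested.

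Whether the cell sheet acted differently between zones was not resolved. For the difference between the border and remote zones, 0 members and 0 of 16784 genes were called by edgeR (0%), with a median difference of -0.74 over the members and a lowest adjusted p of 0.0971, for Atp5mc2 (-0.94 ± 0.21). For the border against the infarct zone, 0 members and 0 of 17275 genes were called (0%), and the lowest adjusted p was 0.225, for Cox7a2l (-0.44 ± 0.13).

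Set against sham, the treated hearts had low subunit RNA in the infarct and border zones. In the infarct zone 48 members were lower and 1, Cox6b2, higher than in sham, against 29.2% of the 15687 genes called lower and 28.6% higher, with a median log2 fold change of -2.41; Cycs stood at -3.02 ± 0.59 (adjusted p = 0.00139) and Cox8b at -3.71 ± 1.07 (adjusted p = 0.0114). In the border zone 48 were lower and 1 higher, against 23.2% of 15960 genes lower and 20.4% higher, with a median of -1.91; Cox8b stood at -3.09 ± 0.87 (adjusted p = 0.0133). In the infarct zone 24 members lay wholly below sham, where 9.22% of all genes did, and in the border zone 36, where 10.1% did. Cox7a2l was lower in both (-0.40, adjusted p = 0.00839, and -0.70). In the remote zone 0 of the 50 members were called by edgeR and 0 by DESeq2, and 1 had an unadjusted p under 0.05. Over all genes, edgeR called 1 of the 15157 tested (0.0066%) and DESeq2 85 higher and 88 lower. The members' median there was -0.08, with Sdha at 0.03 ± 0.23 and Atp5f1b at -0.27 ± 0.28; MI, cell sheet and sham share libraries across these comparisons.

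Ratios of paired genes within a library do not depend on library scaling. Of 36 tests (4 ratios in 9 comparisons, exact permutation test, 2-sided, adjusted over the 36), 14 passed 0.05; the smallest p that 6 against 6 allows is 0.00216. The count fell to 4 without any of sham replicates 2, 3 and 6 or MI replicates 2, 3, 4 and 5, and to 7 without sham replicates 1 or 4 or cell sheet replicates 2 or 4. The log2 ratio of Cox8b to Cox8a was 2.70 ± 0.50 (SD, n = 6) in the sham infarct zone, -0.28 ± 1.92 in MI and -1.72 ± 2.18 with the cell sheet. Its difference from sham was -2.98 for MI (exact permutation test, adjusted p = 0.0312) and -4.43 for the cell sheet (exact permutation test, adjusted p = 0.0195), and only the second pair of groups did not overlap. The ratio of Cox6a2 to Cox6a1 was likewise lower in the MI than in the sham infarct zone, by -1.26 (exact permutation test, adjusted p = 0.0445), and in the border zone by -1.07 (exact permutation test, adjusted p = 0.0425). In the remote zone neither muscle ratio passed the test in any comparison.

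The log2 ratio of Cox4i2 to Cox4i1 rose in the infarct zone, from -7.44 ± 0.18 (SD, n = 6) in sham to -6.44 ± 0.63 in MI (exact permutation test, adjusted p = 0.0334) and -5.65 ± 0.60 with the cell sheet (exact permutation test, adjusted p = 0.0195). Cox4i2 alone was not called in either infarct comparison (adjusted p = 0.0911 and 0.0638, edgeR), and Cox4i1 was lower in both. Atp5if1 relative to Atp5f1b rose in the MI remote zone, from -5.76 ± 0.38 to -4.88 ± 0.33 (difference 0.89, exact permutation test, adjusted p = 0.0334), and was lower again with the cell sheet, at -5.81 ± 0.50 (difference from MI -0.93, exact permutation test, adjusted p = 0.0390). In both comparisons the groups overlapped. This ratio was also higher in MI than in sham in the infarct (difference 1.17, exact permutation test, adjusted p = 0.0425) and border zones (1.03, adjusted p = 0.0445). With the cell sheet it was -3.62 ± 0.97 in the infarct zone, against -5.22 ± 0.52 in sham (exact permutation test, adjusted p = 0.0425). These groups overlapped too. Cell sheet against MI did not pass the test in the infarct and border zones (adjusted p = 0.468 and 0.295). Skeletal muscle, which also uses Cox6a2 and Cox8b, was looked for with 10 markers. Their sum was 9.81 to 44.2 CPM in sham infarct, 32.5 to 63.0 in MI infarct and 31.0 to 381 in cell sheet infarct libraries. Cell sheet infarct replicates 2 and 6 held 206 and 381 CPM, and the others 31.0 to 61.7. In that group replicate 6 had the highest ratios of Cox6a2 to Cox6a1 (1.84) and Cox8b to Cox8a (1.59), and replicate 2 the lowest (-2.31 and -3.58). Myh4 was at 0 in 45 of the 54 libraries, whereas Tnnt3 had medians of 10.6 CPM in sham, 32.7 in MI and 44.5 in cell sheet infarct libraries.

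**Figure D3:**
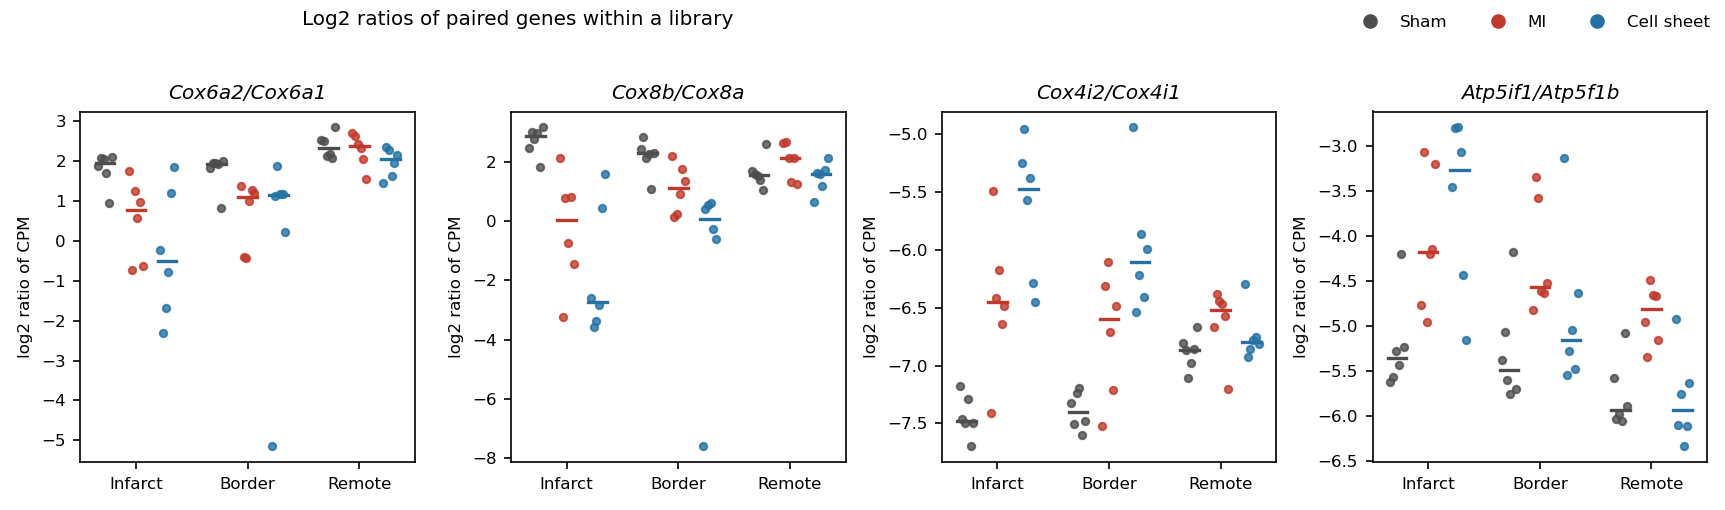
Log2 ratio of the CPM of 2 genes within a library (vertical) for 4 pairs, by zone (horizontal) and treatment (colour); points are libraries and bars are medians of 6. The muscle forms over the general forms of subunits 6A and 8 lie lower in MI and cell sheet than in sham infarct zones. The median of Atp5if1 over Atp5f1b lies higher in MI than in sham in each zone, and in the remote zone also higher than with the cell sheet.

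The summed level of the members was also set against that of the cardiomyocyte markers in the same library. In the remote zone the members summed to 0.463 to 0.501 times the cardiomyocyte markers in sham, 0.543 to 0.699 times in MI and 0.438 to 0.574 times with the cell sheet, so that MI and sham did not overlap. Complex IV showed this most, with 0.0854 to 0.101 in sham, 0.127 to 0.178 in MI and 0.0839 to 0.130 with the cell sheet. For complex II the ranges overlapped, at 0.0344 to 0.0381 in sham, 0.0348 to 0.0441 in MI and 0.0383 to 0.0423 with the cell sheet. The marker sum was itself lower in MI than in sham remote libraries, with medians of 49075 and 92873 CPM. The markers differed in this: Myh6 had medians of 3484 CPM in MI and 13540 in sham, and Myl2 6524 and 7976. The median complex IV sum was 7567 CPM in MI and 8497 in sham. The ratios thus do not measure subunit RNA per cardiomyocyte. They are a description and were not tested.

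**Figure D4:**
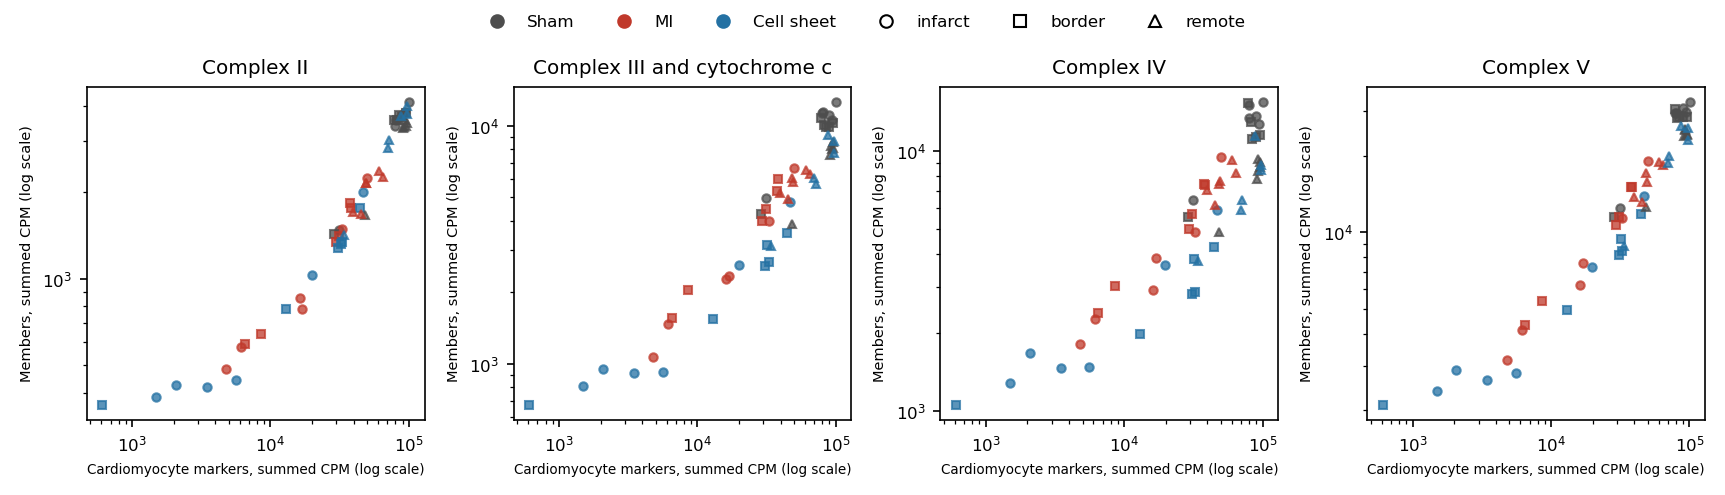
Summed CPM of the members of each complex (vertical, log scale) against the summed CPM of 16 cardiomyocyte markers (horizontal, log scale) in the 54 libraries, by treatment (colour) and zone (shape). In the median border library, complex IV was 0.194 times the markers in MI and 0.108 times with the cell sheet, and complex II 0.0471 and 0.0412 times.

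Other genes of the system were lower in the MI than in the sham infarct zone, where 27.2% of all genes were called lower. Of the 39 genes tested with complex I symbols (Nduf), a list that takes in Ndufa4, 38 were lower in MI than in sham (median log2 fold change -1.63), led by Ndufv2 (-2.11) and Ndufb3 (-2.06). Of 38 assembly factors of complexes II to V, 36 were lower (median -0.94), with Sdhaf3, which matures complex II, at -1.90 and Cox10, which makes heme for complex IV, at -1.72. All 15 carriers and kinases of adenine nucleotide, phosphate and metabolite exchange were lower (median -1.57), among them Ucp3 (-2.62) and the mitochondrial creatine kinase Ckmt2 (-2.21). Of 22 genes of cristae organization and import 20 were lower (median -1.11), with the cristae proteins Apoo at -1.88 and Chchd3 at -1.68.

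The regulators of mitochondrial biogenesis fell as well. In the MI infarct zone 19 of 28 were lower and 1 higher than in sham, against 27.2% and 22.7% of all genes, with Perm1, a muscle regulator of oxidative genes, at -2.59 ± 0.73 (adjusted p = 0.0117) and the nuclear receptor Esrrb at -2.24 ± 0.49 (adjusted p = 0.00356). In the remote zone Perm1 was lower in MI than in sham (-1.19 ± 0.27, adjusted p = 0.00699) and higher with the cell sheet than in MI (1.06 ± 0.29, adjusted p = 0.0272), and Esrrb gave -0.90 (adjusted p = 0.00714) and 0.93 (adjusted p = 0.0245). Mef2d, a muscle transcription factor, gave -0.78 (adjusted p = 0.00306) and 0.68 (adjusted p = 0.0248) in the same comparisons. In all, 14 of the 28 regulators were lower and 1 higher in the MI remote zone than in sham, against 14.2% and 11.7% of all genes, and 8 were higher and 1 lower with the cell sheet than in MI, against 10.3% and 6.79%.

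Some genes of these lists were lower in the cell sheet than in the MI border zone, where 9.48% of all genes were called lower. Of the 39 genes tested with complex I symbols 9 were lower (median -0.76), with Ndufa4 at -1.53 ± 0.44 (adjusted p = 0.0311) and Ndufa5 at -1.51 ± 0.45 (adjusted p = 0.0360). Ndufa4 is listed there by its symbol only, and its protein is now placed in complex IV. Of 38 assembly factors 14 were lower and 1 higher (median -0.32), with Higd1a at -1.38 (adjusted p = 0.0100) and Uqcc2, an assembly factor of complex III, at -1.09 (adjusted p = 0.0159). Micos10 and Micos13, of the complex that shapes cristae, fell by 0.99 and 0.84, Ssbp1, which binds single-stranded mitochondrial DNA, by 0.90, and the pyruvate carrier subunit Mpc2 by 1.08 on the log2 scale. Mef2d was higher there (0.60 ± 0.19, adjusted p = 0.0466). Micos10 also rose in the MI remote zone against sham (0.75 ± 0.22, adjusted p = 0.0230) and was lower with the cell sheet than in MI (-0.93 ± 0.22, adjusted p = 0.0171).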

How the data were processed

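Poly(A) RNA of 54 left ventricular pieces was sequenced. The authors aligned the reads with STAR to mRatBN7.2 and deposited raw counts, a table for each library; which counter and strand setting made them is not given in the sources used here, so antisense and overlapping genes cannot be told apart. The 5 summary lines, 17.0% to 42.8% of a library, entered neither library sizes nor tests. No within-group pair of libraries agreed within sampling noise.

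Each comparison was fitted in R 4.3.3 with edgeR 4.0.16 (TMM, filterByExpr, quasi-likelihood F test, Benjamini-Hochberg threshold 0.05) on the 2 groups of 6 compared; standard errors are the log2 fold change over the square root of F. Differences between zones had the animal as a block. Log2 ratios of CPM used an offset of 0.1 and an exact permutation test. Marker sums and scores used lists of known marker genes; the score is the mean log2 CPM of the 16 cardiomyocyte markers.

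The members and gene lists were chosen with earlier results of these data known. Named genes were, by complex, the members with the largest and smallest fold change of MI against sham in the infarct zone at a mean of at least 10 CPM, those called against the direction of their complex, members with set roles, and the 2 of each other list with the largest called changes of MI against sham in the infarct zone and of cell sheet against MI in the border zone. Cox6b2, Uqcrc2, Atp5f1c, Atp5f1e, Atp5mc2, Atp5mf, Atp5mg, Atp5mk, Cox6c, Cox7b, Cox7c, Uqcr10, Uqcrh and Uqcrq were named after their values were seen.

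Alternatives were DESeq2 1.42.0, no filter, a minimum of 10 counts in every library, scaling by library size alone, the replicate number as a block, a single fit of all 9 groups, the cardiomyocyte score as a covariate, an offset of 0.5, and leaving out each library; added after seeing the data were leaving out both animals that stood apart and an absolute log2 fold change above 1. Each test was first tried on simulated data.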

Additional observations from a re-analysis of the deposited data

Results flagged for a closer look

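Of 81 groups of 6 values tested (sums of each complex, the cardiomyocyte markers and the 4 log2 ratios, by group), 26 had a lowest or highest library whose gap to the others passed Dixon's 95% value, of which chance gives about 1 in 20. Most were sham replicate 5. Its complex II sum was 1476 CPM in the infarct, 1432 in the border and 1664 in the remote zone. For complex III with cytochrome c the values were 4967, 4278 and 3872 CPM, for complex IV 6471, 5560 and 4889 CPM, and for complex V 12438, 11530 and 12619 CPM, each below the other 5 sham libraries of the zone. The cardiomyocyte markers in the same libraries summed to 31374, 28738 and 48309 CPM. In this animal the log2 ratio of Cox6a2 to Cox6a1 was 0.95 in the infarct and 0.81 in the border zone, below the others, and that of Atp5if1 to Atp5f1b was -4.20 in the infarct zone, above the others.

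Cell sheet replicate 1 gave low remote sums of complex II (1423 CPM), complex V (8884 CPM) and cardiomyocyte markers (33908 CPM). In its border library the cardiomyocyte markers summed to 607 CPM, the log2 ratio of Cox6a2 to Cox6a1 was -5.15 and that of Cox8b to Cox8a was -7.61, and in its remote library the ratio of Cox4i2 to Cox4i1 was -6.30, the highest of its group. The single other flag was MI replicate 6, whose remote ratio of Cox4i2 to Cox4i1 was -7.20. Of 207 groups of single named genes 60 were set apart by the same measure, 49 through sham replicate 5 and 10 through cell sheet replicate 1.

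The effect of MI differed between the infarct and remote zones for 44 of the 50 members by a test of the difference itself, against 28.9% of all genes tested, and for 19 without the animal as a block.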

How the results depend on the processing

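The counts of members called for MI against sham in the infarct and border zones and for cell sheet against sham in those zones stayed within 1.5 times under DESeq2, both filters and library size. The count for MI against sham in the remote zone was 5 with no filter, 13 with library size (9 higher, 4 lower), 0 in a single fit of all 9 groups, 27 with both animals that stood apart left out and 0 with an absolute log2 fold change above 1. For cell sheet against MI in the remote zone the counts under the same settings were 3 (no filter), 2 (single fit), 20 (both animals) and 1 (fold limit). Leaving out both animals called 3656 genes higher and 3521 lower of 15444 for MI against sham in the remote zone. For cell sheet against MI there it called 3222 higher and 3228 lower of 15502. With the cardiomyocyte score as a covariate the counts were 1 in the infarct and 1 in the border zone for MI against sham, in each case higher, 12 in the remote zone, all higher, 25 and 13 for cell sheet against MI in the border and remote zones, and 11 for cell sheet against sham in the infarct zone. For this last comparison 807 of all 15687 genes were called higher and 284 lower under the covariate. The cause was not tested. Under this covariate the log2 fold changes of MI against sham turned to 0.14 (infarct) and 0.15 (border) for Cox6a2, 0.0294 for Cox8b (border), 0.12 for Ckmt2 (infarct) and, in the remote zone, 0.0126 for Cox5a, 0.15 for Cyc1, 0.21 for Sdhb, 0.12 for Uqcrc1 and 0.19 for Uqcrfs1, none of them called, and Cox6a2 of cell sheet against sham in the infarct zone turned to 0.13. Leaving out 1 library at a time gave 48 to 49, 35 to 48 and 3 to 27 members for MI against sham in the infarct, border and remote zones, 0 to 0, 7 to 18 and 1 to 20 for cell sheet against MI, 49 to 50, 47 to 50 and 0 to 0 for cell sheet against sham, 39 to 49 for the zone difference of MI, 0 to 0 for both zone differences of the cell sheet, and 4 to 16 of the isoform ratios. A group of 5 raises the smallest exact p of a ratio.

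The replicate numbers do not pair the animals of different treatments: deviations of same-numbered libraries correlated above 0.1 in 1 to 3 of 6 pairs per comparison. With the replicate block 17 members were called for MI against sham in the border zone, 1 and 0 for cell sheet against MI in the border and remote zones, and 0 ratios, for which 6 pairs allow no exact p below 0.0312. Without the replicate block the zone difference of MI called 19. With library size the median log2 fold change of all genes for MI against sham moved from -0.02 to 0.24 in the infarct and from -0.02 to 0.17 in the border zone.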
